A study of Homo sapiens with 16 samples.

Results

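The genes described here are 39 genes of glycolysis and of the cellular response to low oxygen, chosen by symbol for their known function and not by a threshold on these arrays. A member was matched through the platform annotation to the probe sets that list it as their only gene, and the probe set of highest mean signal stood for it. In this way 36 of the 39 members were measured, out of 19775 genes with a probe set of their own. The lactate carriers SLC16A1 and SLC16A3 and the carbonic anhydrase CA9 have no such probe set in the annotation used and were not analysed here.

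RNA came from 8 human B-cell lines grouped by the labels as mantle cell lymphoma lines, a cancer of mature B cells usually marked by high cyclin D1. Each line was kept for 20 h with 5 uM AFN700, a small-molecule inhibitor of the NF-kB-activating kinase IKKbeta, or with the solvent alone (0.025% DMSO), and 1 Affymetrix array was run per line and treatment. REC-1 and SP49 are labelled sensitive to "stn" and ibrutinib, a BTK inhibitor, and JVM-2, JVM-13, HBL-2, Z-138, Maver-1 and GRANTA-519 are labelled insensitive. The groups are therefore 2 sensitive and 6 insensitive lines under DMSO and the same lines under AFN700. The cell line is the replicate, each line counts once, and nothing in the labels says that its arrays came from separate cultures. The p-values thus measure the spread between lines and their single arrays. GRANTA-519 grew in DMEM and the others in RPMI, both with 10% serum. The treated JVM-13 array is titled AFN700, but its treatment and description fields read AFN701.

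Glycolysis splits glucose into pyruvate. Hexokinases trap glucose in the cell, phosphofructokinase commits it to breakdown, and the later enzymes, from GAPDH to pyruvate kinase, return ATP. Lactate dehydrogenase then turns pyruvate into lactate, while the pyruvate dehydrogenase kinases hold pyruvate back from the mitochondria. HIF1A is the oxygen-regulated subunit of the transcription factor HIF-1. The prolyl hydroxylases EGLN1 and EGLN3 mark it for destruction when oxygen is present, and many genes of glycolysis and of blood vessel growth, mitophagy and growth arrest are HIF targets. Activated B cells and lymphoma cells are known for high glucose use, and HIF1A is itself known as an NF-kB target gene.

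Levels are MAS5 intensities on a linear scale, which the deposited arrays share after scaling. Differences are on the scale log2(intensity + 3.3) and understate changes at low intensity. An intensity under about 27 lies near the 60th percentile of all probe sets on an array (21.5 to 31.7) and is called low here, since no detection calls were used. All 36 measured members exceeded that percentile on at least 2 arrays and entered the fit with 12305 genes in total. In bulk RNA, fewer cells of a kind and less RNA per cell cannot be told apart. Where a member's value is given for all 8 lines, they stand in falling order of intensity. A member's level is compared between lines and never with the level of another gene.

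Some arrays stood apart. The median of the genes tested was 7.25 on the log2 scale on the DMSO array of JVM-13 and 7.82 to 8.02 on the other 15 arrays. Between DMSO and AFN700 the actin 3'/5' ratio, a measure of RNA integrity, went from 1.90 to 16.7 in HBL-2, from 2.73 to 6.40 in SP49 and from 10.3 to 18.8 in Maver-1. Among the markers of the tissue, 5 of 5 measured B-cell genes were above an intensity of 27 on 16 of 16 arrays, cyclin D1 (CCND1) on 14 and SOX11, a transcription factor typical of mantle cell lymphoma, on 12. JVM-13 was low in both (CCND1 4.8 and 2.3, SOX11 1.4 and 0.3 under DMSO and AFN700), and JVM-2 was low in SOX11 (0.1 and 0.6). The defining markers of the labelled lymphoma were thus absent from JVM-13 at this array's sensitivity. Summed intensities ran from 6.6 to 373 for 5 T-cell markers and from 1.0 to 36.9 for 3 myeloid markers. The sums ran from 7.1 to 626 for 3 fibroblast markers, which was nearly all COL1A1 where it was highest, and from 16.3 to 489 for 3 epithelial markers. The part of these signals in the results was not tested.

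Under DMSO the enzymes GPI, ALDOA, TPI1, PGK1, LDHA and LDHB differed by less than 2-fold between the lowest and the highest line. Isoforms such as ENO2 and ALDOC, the hexokinase HK1 and several HIF targets differed far more. The standard deviation of the DMSO level over the 8 lines had a median of 0.69 on the log2 scale over the 36 members. The median size of the AFN700 response within a line had a median of 0.21 over the same members. The first was larger than the second for 36 of 36 members, as for 95.4% of all genes tested. An SD and a median of absolute differences are unlike measures, so this count does not rank line against treatment. JVM-13 had the highest DMSO level of the 8 lines for 20 of 36 members, or 55.6%, against 17.2% of all genes tested, and the lowest for 1, EGLN3, where 32.4% of genes were lowest there. REC-1 had the lowest level for 15 members, or 41.7%, against 12.5%. The part of RNA integrity in the REC-1 levels, given its actin ratio of 5.06, was not tested. JVM-2 was highest for 9 members, or 25%, against 12.7%.

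The size of the JVM-13 pattern depended on how the arrays were scaled. After quantile normalization JVM-13 was highest for 16 members against 16.2% of all genes, and after centring each array on its median for 26 members against 35.1%. Its AFN700 array, which did not stand apart in its median, was highest of the 8 AFN700 arrays for 15 of 36 members (41.7%, against 12.9%). The high members of JVM-13 under DMSO included 4 of 4 measured genes of pyruvate and lactate and 6 of 10 measured HIF targets outside glycolysis. After quantile normalization these counts were 2 and 6.

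**Figure D1:**
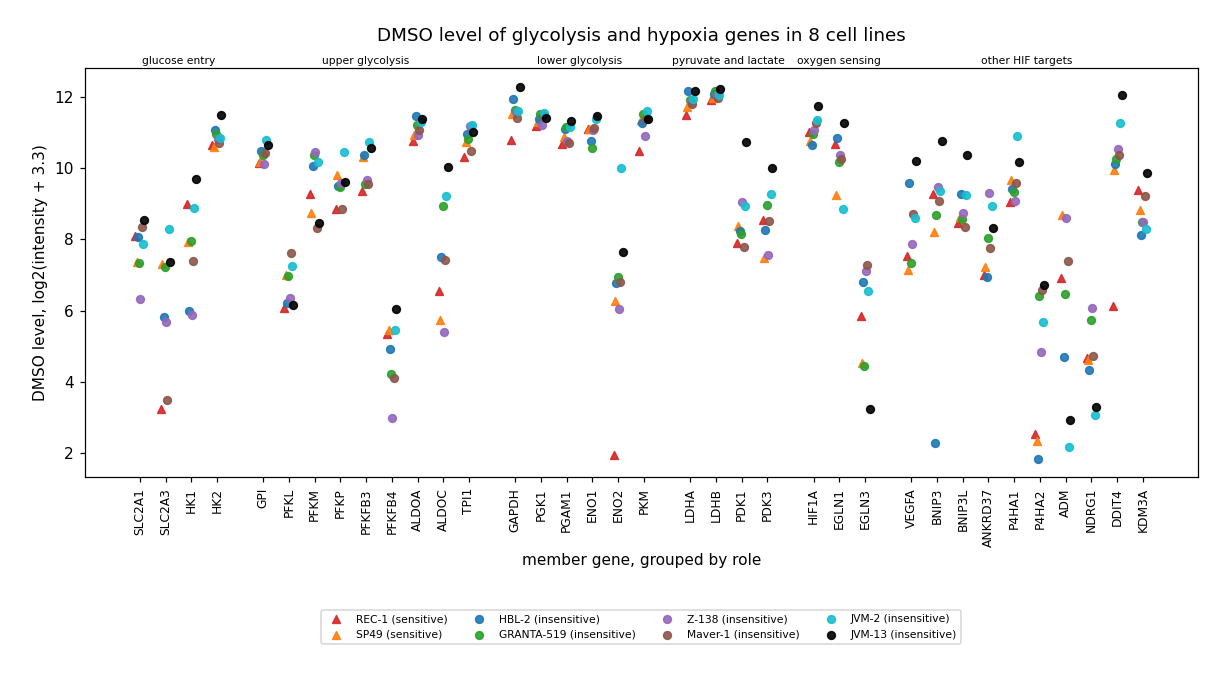
DMSO level of each of the 36 measured members (vertical axis, log2(intensity + 3.3)) in the 8 cell lines, with members grouped by role along the horizontal axis. Triangles are the sensitive lines REC-1 and SP49, circles the 6 insensitive lines. Enzymes such as PGK1 and LDHB lie in a narrow band, whereas ENO2 in REC-1, BNIP3 in HBL-2 and DDIT4 in REC-1 fall far below the other lines.

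Of the glucose entry genes, HK2, the hexokinase typical of fast-growing cells, was present in all lines. HK2 intensity under DMSO was 2879.6 for JVM-13, 2149.7 for HBL-2, 1969 for GRANTA-519, 1852 for JVM-2, 1815 for Z-138, 1661 for Maver-1, 1597 for REC-1 and 1532 for SP49. Both sensitive lines lay below all 6 insensitive lines, and JVM-13 was the highest. HK1, the broadly expressed hexokinase, was 827 for JVM-13, 502 for REC-1, 470.0 for JVM-2, 244 for GRANTA-519, 240.0 for SP49, 166 for Maver-1, 60 for HBL-2 and 56.0 for Z-138, so that Z-138 and HBL-2 were the lowest and JVM-13 the highest. The glucose transporter SLC2A1 (GLUT1) was 371 for JVM-13, 325 for Maver-1, 269.5 for REC-1, 263 for HBL-2, 229.7 for JVM-2, 163 for SP49, 159.7 for GRANTA-519 and 77.5 for Z-138. It was lowest in Z-138, and the sensitive lines lay within the range of the insensitive ones. SLC2A3 (GLUT3), a transporter of high glucose affinity, ranged from 6.2 in REC-1 to 307.7 in JVM-2 and was low only in REC-1 and Maver-1 (8.1), a pattern that its other 2 probe sets shared.

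In the upper part of glycolysis the lines were close for 3 enzymes. The isomerase GPI was 1777 for JVM-2, 1609 for JVM-13, 1439 for HBL-2, 1384 for Maver-1, 1312 for GRANTA-519, 1140.1 for SP49, 1139 for REC-1 and 1105 for Z-138. The aldolase ALDOA was 2814 for HBL-2, 2651 for JVM-13, 2518 for JVM-2, 2384 for GRANTA-519, 2146 for Maver-1, 1963 for Z-138, 1949.9 for SP49 and 1732 for REC-1, with both sensitive lines below all insensitive lines by a small margin. The triose isomerase TPI1 was 2359 for JVM-2, 2327 for Z-138, 2070.5 for JVM-13, 1994 for HBL-2, 1795 for GRANTA-519, 1699.6 for SP49, 1416 for Maver-1 and 1273 for REC-1. These genes spanned less than 2-fold between the lowest and the highest line.

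Isoforms were less even. The muscle-type phosphofructokinase PFKM ranged from 319 in Maver-1 to 1399 in Z-138, the platelet type PFKP from 458 in REC-1 to 1399 in JVM-2, and the liver type PFKL from 63.7 in REC-1 to 193 in Maver-1. Maver-1 and JVM-13 (346.5) had the lowest PFKM levels of the 8 lines. ALDOC, an aldolase typical of brain, ranged from 39.1 in Z-138 to 1042.5 in JVM-13. PFKFB3 and PFKFB4 make and break fructose-2,6-bisphosphate, an activator of phosphofructokinase. PFKFB3 ranged from 657 in REC-1 to 1702 in JVM-2. PFKFB4 was 63.0 for JVM-13, 40.7 for SP49, 40.4 for JVM-2, 37.4 for REC-1, 27.4 for HBL-2, 15.3 for GRANTA-519, 14.1 for Maver-1 and 4.6 for Z-138, which is low in Z-138, Maver-1 and GRANTA-519.

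In the lower part, GAPDH was 4975 for JVM-13, 3901 for HBL-2, 3187 for GRANTA-519, 3117 for JVM-2, 3052 for Z-138, 2940.0 for SP49, 2717 for Maver-1 and 1768 for REC-1. REC-1 was the lowest and JVM-13 the highest, and the other 2 GAPDH probe sets gave the same end points. PGK1, the first ATP-yielding enzyme, was 2998 for JVM-2, 2951 for GRANTA-519, 2851 for Maver-1, 2704 for JVM-13, 2645 for HBL-2, 2521 for SP49, 2378 for Z-138 and 2306 for REC-1, a 1.3-fold span. Pyruvate kinase PKM was 3099 for JVM-2, 2933 for GRANTA-519, 2646 for Maver-1, 2637 for JVM-13, 2631 for SP49, 2437 for HBL-2, 1899 for Z-138 and 1437 for REC-1, lowest in REC-1. PGAM1 ranged from 1636 in REC-1 to 2575 in JVM-13 and ENO1 from 1497 in GRANTA-519 to 2840 in JVM-13. Processed copies of several of these genes exist in the genome, and how far their probe sets also bind such copies was not tested.

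The neuronal enolase ENO2 had a different pattern. ENO2 was 1028 for JVM-2, 198 for JVM-13, 119.6 for GRANTA-519, 109 for Maver-1, 107 for HBL-2, 73.8 for SP49, 63.4 for Z-138 and 0.6 for REC-1. It was low in REC-1 alone and far higher in JVM-2 than in the other 7 lines. Over the 6 members of this part of the pathway the levels followed one another across lines, with a median Pearson correlation of 0.63 over 15 pairs of genes and 8 lines. Over all 630 pairs of members the median was 0.29. These values describe the same 8 arrays and share their scaling.

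At the branch from pyruvate to lactate, LDHA, which favours lactate formation, was 4626 for JVM-13, 4612 for HBL-2, 3914 for JVM-2, 3824 for GRANTA-519, 3723 for Z-138, 3591 for Maver-1, 3355 for SP49 and 2893 for REC-1. Both sensitive lines lay below all 6 insensitive lines. LDHB, which favours the reverse reaction, was 4735 for JVM-13, 4587 for GRANTA-519, 4291 for HBL-2, 4259 for JVM-2, 4207 for Z-138, 4038 for SP49, 3982 for Maver-1 and 3816 for REC-1, a 1.24-fold span. The kinase PDK3 was 1020.0 for JVM-13, 621 for JVM-2, 496 for GRANTA-519, 372 for REC-1, 365 for Maver-1, 304 for HBL-2, 185 for Z-138 and 176 for SP49, and PDK1 ranged from 219.6 in Maver-1 to 1687 in JVM-13. For PDK1 the next highest line, Z-138, stood at 527.

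LDHA is a textbook HIF target, and its RefSeq promoter is shown because both sensitive lines lay lowest in it. The capitals mark ACGTG or GCGTG, the core letters of the HIF site, on either strand (CACGT or CACGC on the strand shown); a CACGTG holds ACGTG on both strands and counts as 2 matches. The stretch lies upstream of the annotated start, at chr11:18394368-18394504 of GRCh38.p14, plus strand, and holds 5 matches.
LDHA: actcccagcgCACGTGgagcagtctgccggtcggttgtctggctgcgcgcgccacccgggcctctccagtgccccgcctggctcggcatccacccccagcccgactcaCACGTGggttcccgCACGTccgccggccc

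Of 36 measured members, 32 had a promoter in the RefSeq table. In the 250 bases before the start, 21 of the 32 (65.6%) held either core, against 57.0% of the genes tested with a promoter and 43.1% of all promoters in the table. For ACGTG alone the shares were 43.8%, 23.6% and 18.7%. A match is a description of letters, and no binding was measured here.

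Among the oxygen sensing genes, HIF1A was 3397 for JVM-13, 2592 for JVM-2, 2455 for Maver-1, 2148 for Z-138, 2059 for REC-1, 1990.1 for GRANTA-519, 1726 for SP49 and 1591 for HBL-2, highest in JVM-13 and lowest in HBL-2. The hydroxylase EGLN1 was 2468 for JVM-13, 1830.2 for HBL-2, 1622 for REC-1, 1318 for Z-138, 1212 for Maver-1, 1154 for GRANTA-519, 605 for SP49 and 459 for JVM-2. JVM-2 and SP49 had the lowest EGLN1 levels of the 8 lines, and JVM-13 the highest. EGLN3, an inducible hydroxylase, was 154 for Maver-1, 135 for Z-138, 109 for HBL-2, 90.5 for JVM-2, 54.0 for REC-1, 19.7 for SP49, 18.5 for GRANTA-519 and 6.1 for JVM-13. It was low in JVM-13, GRANTA-519 and SP49. Its second probe set was also low in JVM-13 (8.4) and GRANTA-519 (17.9) but read 71.6 in SP49.

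Some HIF targets outside glycolysis differed widely between lines, as ENO2 did, while BNIP3L, P4HA1 and KDM3A spanned 3.4- to 4.1-fold. DDIT4 (REDD1), a stress-induced inhibitor of mTORC1, was 4222 for JVM-13, 2472 for JVM-2, 1474 for Z-138, 1322 for Maver-1, 1229 for GRANTA-519, 1105 for HBL-2, 981 for SP49 and 66.6 for REC-1. REC-1 lay far below the other 7 lines and JVM-13 above them, and both sensitive lines were below all 6 insensitive ones. BNIP3, a mitophagy receptor, was 1729.8 for JVM-13, 701 for Z-138, 657 for JVM-2, 621 for REC-1, 537 for Maver-1, 411 for GRANTA-519, 293 for SP49 and 1.6 for HBL-2. HBL-2 lay near the background, and its second BNIP3 probe set was lowest there too, at 8.5 against 88.0 to 501 in the other lines. P4HA1, a collagen prolyl hydroxylase, was 1898 for JVM-2, 1142 for JVM-13, 807 for SP49, 760.1 for Maver-1, 679 for HBL-2, 638 for GRANTA-519, 539.5 for Z-138 and 523 for REC-1, highest in JVM-2.

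P4HA2, the sister enzyme, was 103 for JVM-13, 93.2 for Maver-1, 81.6 for GRANTA-519, 47.7 for JVM-2, 25.6 for Z-138, 2.5 for REC-1, 1.8 for SP49 and 0.3 for HBL-2. It was near 0 in REC-1, SP49 and HBL-2 and just under 27 in Z-138. The first 3 lines were also low on its other brighter probe set (1.6, 6.1 and 1.8), as was Z-138 (6.5). ADM, which encodes the vasodilator peptide adrenomedullin, ranged from 1.2 in JVM-2 and 4.4 in JVM-13 to 412 in SP49. VEGFA, the blood vessel growth factor, ranged from 139 in SP49 to 1180.4 in JVM-13. The mitophagy receptor BNIP3L ranged from 321 in Maver-1 to 1316 in JVM-13, and the histone demethylase KDM3A from 273 in HBL-2 to 927 in JVM-13. ANKRD37, a small ankyrin protein, was lowest in HBL-2 (120.1) and highest in Z-138, ahead of JVM-2 (483), and NDRG1, a stress-response gene, ranged from 5.1 in JVM-2 to 64.1 in Z-138. NDRG1 was above 27 under DMSO only in GRANTA-519 and Z-138.

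The promoters of DDIT4 and BNIP3 are shown because each gene was far lower in 1 line than in the other 7, and that of EGLN1 because it was over 2-fold lower with AFN700 in JVM-13 alone. Other members had such patterns and are not printed. PDK1, also over 2-fold lower in JVM-13 alone, held 0 matches in the 250 bases before the start. ENO2, far lower in REC-1 than in the other lines, held 1. Capitals mark the same cores. The DDIT4 stretch, chr10:72273695-72273885 on the plus strand, holds 3 matches. The BNIP3 stretch, chr10:131982013-131982076 on the minus strand, holds 6, and the EGLN1 stretch, chr1:231422288-231422310 on the minus strand, holds 1, ending at the base before the start. All are of GRCh38.p14 and lie upstream of the annotated start.
DDIT4: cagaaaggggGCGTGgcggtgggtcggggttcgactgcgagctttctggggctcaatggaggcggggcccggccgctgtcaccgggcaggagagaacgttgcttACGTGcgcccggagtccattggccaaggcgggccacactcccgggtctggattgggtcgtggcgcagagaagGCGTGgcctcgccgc
BNIP3: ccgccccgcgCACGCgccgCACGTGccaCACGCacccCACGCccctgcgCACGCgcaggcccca
EGLN1: gccgtggtgtACGTGcagagcgc

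The first comparison asked whether the DMSO level differed between sensitive and insensitive lines. No member passed the test, by limma at a Benjamini-Hochberg adjusted p under 0.05 over 12305 genes. The background in this comparison was 1 gene, or 0.00813%, the potassium channel gene KCNJ16. The fitted difference was below 0 for 29 of 36 members and above 0 for 7, with a median of -0.37 (log2) against 0.07 over all genes tested. After centring the arrays the split was 31 and 5. At an unadjusted p under 0.05, 5 members were lower in the sensitive lines, where 2.75% of all genes were, and 0 were higher, where 2.96% were.

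The 5 members were DDIT4 at -2.73 ± 0.86 (SE; limma adjusted p = 0.757), ENO2 at -3.26 ± 1.22, P4HA2 at -2.91 ± 1.21, GAPDH at -0.58 ± 0.25 and LDHA at -0.37 ± 0.14. The adjusted p of the other 4 was 0.843 to 0.864. As the DMSO values above show, the difference in ENO2 and much of that in DDIT4 came from REC-1, and P4HA2 was as low in HBL-2 as in the sensitive lines. Among runs that left out 1 insensitive line, the count of 5 became 3 without JVM-13 and 7 without Z-138. In these runs 837 and 687 of 12305 genes had such a p, against 702 with all lines. Without REC-1 or SP49, the other stands alone for the sensitive lines and is assumed to vary like the insensitive ones. No such count is given for those runs, so the range of 3 to 7 does not cover them. The member median was then -0.24 without REC-1, with 25 members below 0 and 11 above. Without SP49 it was -0.41, with 27 below and 9 above. DDIT4 was -0.82 without REC-1 and -4.64 without SP49.

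Both sensitive lines lay below all 6 insensitive lines for 4 of 36 members, HK2, ALDOA, LDHA and DDIT4, and above them for 0. That is 11.11% against 3.49% of all genes tested, and 0 against 5.68%. The other probe sets of HK2 and ALDOA, all dimmer, did not share this order. On the second ALDOA probe set SP49 read 1826.5 and the insensitive line Z-138 1741.5. Those of HK2 read lowest in JVM-13, an insensitive line, at 18.8 and 4.7. LDHA and DDIT4 have 1 probe set each. LDHA was 3124 ± 327 (SD, n = 2) in the sensitive and 4048 ± 455 (n = 6) in the insensitive lines. For HK2 the values were 1565 ± 46.0 and 2054 ± 436, and for ALDOA 1841 ± 154 and 2413 ± 317. In each of these 3 genes the gap between the nearest lines was smaller than the SD of the insensitive lines.

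The second comparison asked how the members responded to AFN700. Over 8 lines no member passed the test, as no gene did (0 of 12305, a background of 0%). At an unadjusted p under 0.05 limma gave 1006 genes, or 8.18% (6.43% higher and 1.75% lower), and 2 members, PFKFB4 higher and HK2 lower. The response was above 0 for 15 members and below 0 for 21, with a median of -0.02 against 0.06 over all genes. Without GRANTA-519 the split was 20 and 16, with a median of 0.03, and without JVM-13 it was 18 and 18. After centring, which moved the median of all genes to -0.04, the split was 7 and 29. No member moved with the same sign in all 8 lines, where 1.98% of genes were higher and 0.414% lower in all 8.

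**Figure D2:**
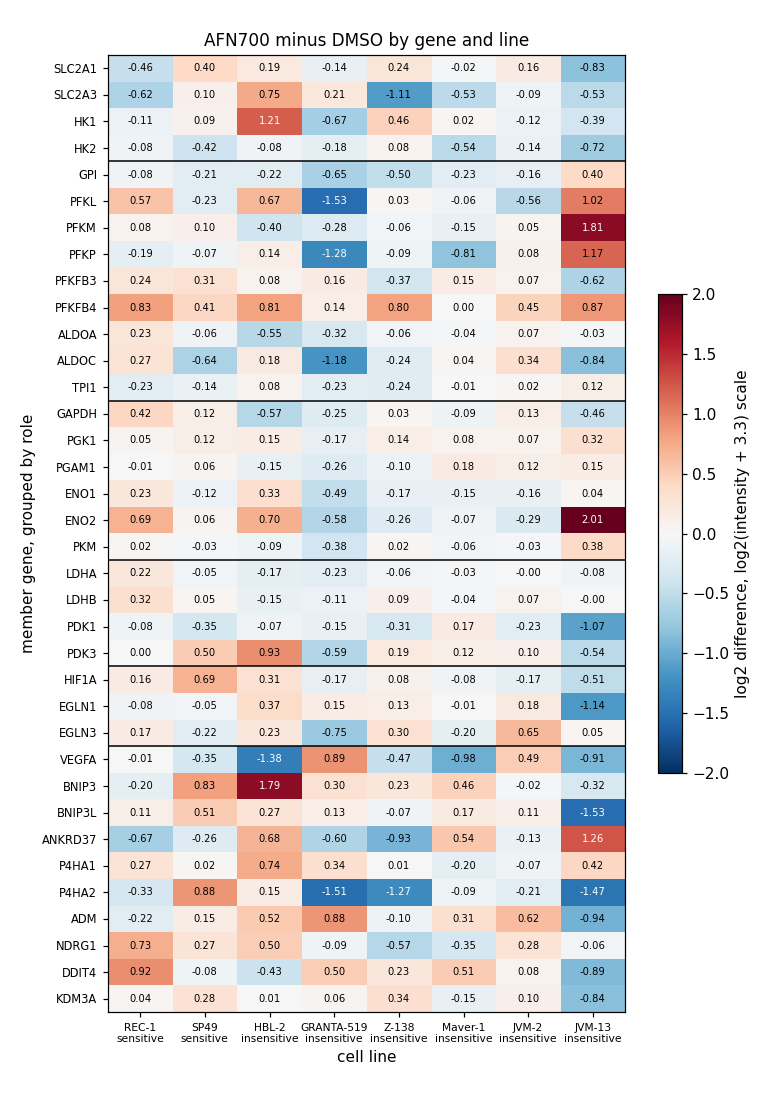
AFN700 minus DMSO (log2, colour and printed value) for the 36 measured members (rows, grouped by role) in the 8 lines (columns), 1 array per line and treatment. Most cells are pale; the darkest are ENO2 in JVM-13 at 2.01, PFKM in JVM-13 at 1.81 and BNIP3 in HBL-2 at 1.79 among the higher ones, and BNIP3L in JVM-13 and PFKL in GRANTA-519, both at -1.53, among the lower ones.

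PFKFB4, of the enzymes that set fructose-2,6-bisphosphate, had the smallest p-value of the members in this comparison. With AFN700 its intensity was 118 for JVM-13, 68.9 for REC-1, 56.3 for JVM-2, 55.1 for SP49, 50.6 for HBL-2, 17.2 for GRANTA-519, 14.1 for Maver-1 and 10.5 for Z-138, against the DMSO values given above. It was higher in 7 of 8 lines and equal in Maver-1, in sensitive and insensitive lines alike. The mean difference was 0.54 ± 0.34 (SD, n = 8 lines; limma SE 0.16, adjusted p = 0.472). In GRANTA-519, Z-138 and Maver-1 both arrays were low, and a second, dim PFKFB4 probe set shared the sign in only 4 of 8 lines.

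HK2 had the opposite sign. With AFN700 its intensity was 2039.9 for HBL-2, 1913 for Z-138, 1751 for JVM-13, 1737 for GRANTA-519, 1682 for JVM-2, 1513 for REC-1, 1145 for Maver-1 and 1144 for SP49. It was lower in 7 of 8 lines and slightly higher in Z-138, at a mean of -0.26 ± 0.27 (SD, n = 8; limma SE 0.09, adjusted p = 0.552). The gap was largest in JVM-13, from 2880 to 1751, and the mean was -0.19 without that line. The other 2 HK2 probe sets, both dimmer, moved against it across lines (Pearson r of -0.615 and -0.468 over the 8 differences) and read far lower on the JVM-13 DMSO array than on its AFN700 array.

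HK1 with AFN700 was 631 for JVM-13, 465 for REC-1, 434 for JVM-2, 256 for SP49, 169 for Maver-1, 152 for GRANTA-519, 143 for HBL-2 and 78.4 for Z-138. The difference was largest in HBL-2, at 1.21, and the other lines lay on both sides of 0. SLC2A1 was 321 for Maver-1, 302 for HBL-2, 257 for JVM-2, 217 for SP49, 208 for JVM-13, 195 for REC-1, 144 for GRANTA-519 and 91.8 for Z-138, a difference of -0.83 in JVM-13, with the other 7 lines from -0.46 to 0.40. SLC2A3 was lower in 5 and higher in 3 lines, with differences from -1.11 in Z-138 to 0.75 in HBL-2.

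GPI with AFN700 was 2118 for JVM-13, 1589 for JVM-2, 1238 for HBL-2, 1179 for Maver-1, 1081 for REC-1, 986 for SP49, 832 for GRANTA-519 and 782 for Z-138. It was lower in 7 lines and higher in JVM-13, at a mean of -0.21 ± 0.31 (SD, n = 8; limma adjusted p = 0.639). Without JVM-13 it was lower in 7 of 7 lines, the only member with 1 sign in all of them, where 2.01% of genes were lower and 3.91% higher in all 7. The difference was then -0.29 ± 0.08 (SE, limma adjusted p = 0.166). In JVM-13 it went from 1609 to 2118. Only 1 probe set measures GPI, so there is no second reading.

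ALDOA with AFN700 was 2638 for JVM-2, 2604 for JVM-13, 2094 for Maver-1, 2038 for REC-1, 1923 for HBL-2, 1909.6 for GRANTA-519, 1884 for Z-138 and 1867 for SP49, and TPI1 was 2393 for JVM-2, 2257 for JVM-13, 2103 for HBL-2, 1972 for Z-138, 1547 for SP49, 1534 for GRANTA-519, 1404 for Maver-1 and 1084 for REC-1. The mean differences were -0.09 ± 0.24 and -0.08 ± 0.15 (SD, n = 8), smaller than the spread between lines. The 3 phosphofructokinases shared a sign in GRANTA-519, in Maver-1 and in JVM-13. A second, dimmer PFKL probe set read -0.87, 0.06 and 0.36 in these lines, so it did not share the sign in Maver-1. In GRANTA-519, PFKL went from 122 to 40.3 and PFKP from 713 to 291, while PFKM changed by -0.28. In Maver-1 the differences were -0.06 for PFKL, -0.15 for PFKM and -0.81 for PFKP. In JVM-13, PFKL went from 68.1 to 141, PFKM from 346.5 to 1222 and PFKP from 782.5 to 1760.3. In the 7 lines other than JVM-13, PFKM lay between -0.40 and 0.10. PFKFB3 ranged from -0.62 in JVM-13 to 0.31 in SP49, and ALDOC from -1.18 in GRANTA-519 to 0.34 in JVM-2.

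In the lower part of the pathway, PGK1 with AFN700 was 3365 for JVM-13, 3153 for JVM-2, 3004 for Maver-1, 2937 for HBL-2, 2749 for SP49, 2624 for GRANTA-519, 2614 for Z-138 and 2394 for REC-1. It was higher in 7 of 8 lines by at most 0.32, at a mean of 0.10 ± 0.13 (SD, n = 8). Its other 4 bright probe sets were higher in 1 to 5 lines. PKM was 3429.9 for JVM-13, 3043 for JVM-2, 2571 for SP49, 2535 for Maver-1, 2284 for HBL-2, 2247 for GRANTA-519, 1927 for Z-138 and 1457 for REC-1, lower in GRANTA-519 (-0.38), higher in JVM-13 (0.38), with the other 6 lines from -0.09 to 0.02. ENO2 was 838 for JVM-2, 807 for JVM-13, 176 for HBL-2, 103 for Maver-1, 79.0 for GRANTA-519, 77 for SP49, 52.3 for Z-138 and 3.0 for REC-1. The difference was 2.01 in JVM-13 and at most 0.70 in the other lines, and REC-1 was low on both arrays. PGAM1 lay between -0.26 and 0.18 and ENO1 between -0.49 and 0.33.

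LDHA with AFN700 was 4386 for JVM-13, 4090.4 for HBL-2, 3910.3 for JVM-2, 3568 for Z-138, 3514 for Maver-1, 3374 for REC-1, 3263 for GRANTA-519 and 3238 for SP49, and LDHB was 4748 for REC-1, 4729.6 for JVM-13, 4493 for Z-138, 4478 for JVM-2, 4242 for GRANTA-519, 4166 for SP49, 3883 for Maver-1 and 3872 for HBL-2. LDHA was lower in 7 of 8 lines, down to -0.23 in GRANTA-519, and higher in REC-1 by 0.22, at a mean of -0.05 ± 0.13 (SD, n = 8). PDK1 was lower in 7 of 8 lines, and the mean of -0.26 ± 0.36 became -0.15 ± 0.18 (SD, n = 7) without JVM-13, where it went from 1687 to 801. PDK3 was 698 for JVM-13, 666 for JVM-2, 583 for HBL-2, 396 for Maver-1, 373 for REC-1, 329 for GRANTA-519, 251 for SP49 and 211 for Z-138, higher in 6 lines and lower in GRANTA-519 and JVM-13. Its 4 other probe sets, all dimmer, shared the sign in 3 to 5 of 8 lines.

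EGLN1 with AFN700 was 2371 for HBL-2, 1539 for REC-1, 1442 for Z-138, 1280.5 for GRANTA-519, 1206 for Maver-1, 1116 for JVM-13, 584 for SP49 and 519.6 for JVM-2. JVM-13 differed by -1.14, the other lines by -0.08 to 0.37. EGLN3 was 166 for Z-138, 144 for JVM-2, 133 for Maver-1, 129 for HBL-2, 61.1 for REC-1, 16.5 for SP49, 9.7 for GRANTA-519 and 6.4 for JVM-13, with no common direction. DDIT4 was 2609 for JVM-2, 2282 for JVM-13, 1891 for Maver-1, 1734 for GRANTA-519, 1725 for Z-138, 925 for SP49, 819 for HBL-2 and 129 for REC-1. It was higher in 5 lines and lower in HBL-2, SP49 and JVM-13, and REC-1 remained the lowest line, although it was higher by 0.92.

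BNIP3 with AFN700 was 1386 for JVM-13, 821 for Z-138, 738 for Maver-1, 649 for JVM-2, 542 for REC-1, 522 for SP49, 508 for GRANTA-519 and 13.7 for HBL-2. It was higher in 5 of 8 lines, at a mean of 0.38 ± 0.68 (SD, n = 8). The largest value, 1.79, came from HBL-2, where both arrays were under 27 and the second probe set read lower with AFN700 (-0.86). That second BNIP3 probe set, which is dimmer, shared the sign in only 3 of 8 lines (Pearson r of -0.612 over the 8 differences). P4HA1 was 1809.7 for JVM-2, 1524 for JVM-13, 1138 for HBL-2, 821 for SP49, 810.3 for GRANTA-519, 661 for Maver-1, 631 for REC-1 and 545 for Z-138, higher in 6 of 8 lines. P4HA2 was 87.2 for Maver-1, 40.9 for JVM-2, 35.1 for JVM-13, 26.5 for GRANTA-519, 8.7 for Z-138, 6.1 for SP49, 1.3 for REC-1 and 0.7 for HBL-2, and in the insensitive lines its difference was -0.73 ± 0.28 (SE, limma adjusted p = 0.758). Its other brighter probe set read -1.34 in GRANTA-519 but 0.63 in Z-138 and 0.05 in JVM-13. VEGFA ranged from -1.38 in HBL-2 to 0.89 in GRANTA-519, ANKRD37 from -0.93 in Z-138 to 1.26 in JVM-13, ADM from -0.94 in JVM-13 to 0.88 in GRANTA-519 and NDRG1 from -0.57 in Z-138 to 0.73 in REC-1. BNIP3L and KDM3A were each higher in 6 of 8 lines by at most 0.51 and 0.34, and read -1.53 and -0.84 in JVM-13. A second, dimmer BNIP3L probe set was lower in 6 of 8 lines and read -0.50 in JVM-13.

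**Figure D3:**
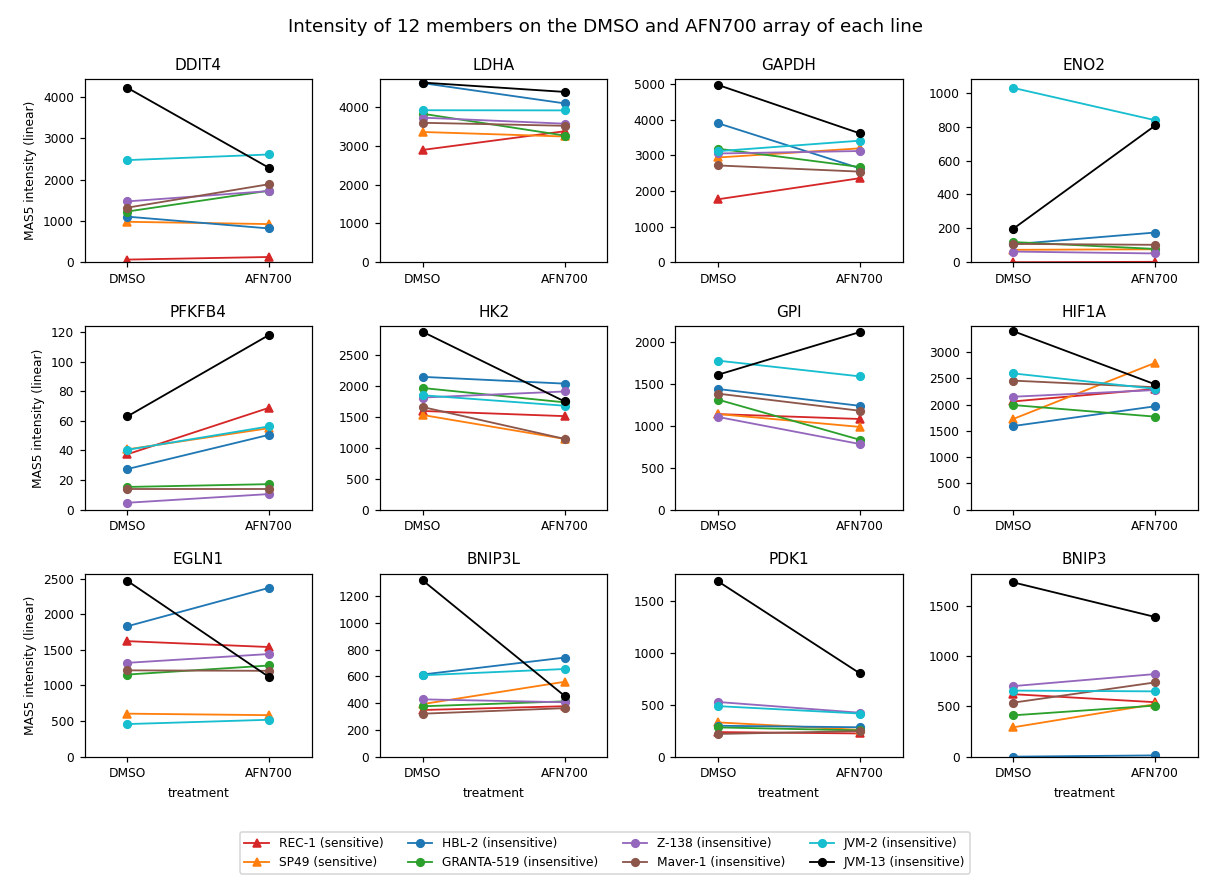
Intensity (vertical axis, linear, from 0) of 12 members on the DMSO and the AFN700 array of each line, joined by a line per cell line. Triangles are sensitive and circles insensitive lines. JVM-13 is lower with AFN700 for DDIT4, HIF1A, EGLN1, BNIP3L and PDK1 and higher for ENO2, GPI and PFKFB4, and DDIT4 in REC-1 and BNIP3 in HBL-2 lie near the bottom in both treatments.

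The third comparison took sensitive and insensitive lines apart. In the 2 sensitive lines 0 members passed the test (background 0%), 21 of 36 were above 0 and the median was 0.09, against 0.04 over all genes. After quantile normalization 17 were above 0. In the 6 insensitive lines 0 members passed (background 0%), 25 of 36 were below 0 and the median was -0.06, against 0.07. That median was -0.12 without HBL-2, -0.03 without GRANTA-519 (21 below 0) and -0.19 after centring (29 below 0). An unadjusted p under 0.05 was found in the sensitive lines for 1 higher member, HIF1A (2.20% of all genes), and 0 lower members (0.650%). In the insensitive lines it was found for 1 higher member, PFKFB4 (4.63%), and 2 lower members, P4HA2 and HK2 (1.41%).

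The difference between the responses was itself tested, and 0 of 12305 genes passed (0%), while an unadjusted p under 0.05 was found for 2 members above 0, GAPDH and HIF1A (1.09% of all genes), and 0 below 0 (0.390%). GAPDH with AFN700 was 3615 for JVM-13, 3412 for JVM-2, 3197 for SP49, 3122 for Z-138, 2673 for GRANTA-519, 2636 for HBL-2, 2544 for Maver-1 and 2359.9 for REC-1. It was higher in REC-1 and SP49 and mixed in the insensitive lines, lowest relative to DMSO in HBL-2 (-0.57) and JVM-13 (-0.46). The response was 0.27 ± 0.17 (SE) in sensitive and -0.20 ± 0.10 in insensitive lines, a difference of 0.47 ± 0.19 (limma adjusted p = 1). REC-1, with the lowest DMSO level, had the largest positive difference (0.42). The response and the DMSO level rest on the same DMSO arrays.

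The array's control probe sets for GAPDH read the 3' end, the middle and the 5' end of its message. In HBL-2 the 3' signal was 4726 under DMSO and 4280 with AFN700, while the 5' signal went from 3954 to 1338. In JVM-13 the 3' signal went from 6776 to 4900 and the 5' signal from 5380.4 to 2157. In REC-1 both were higher with AFN700, from 2989 to 3806 and from 1083 to 1743. In SP49 the 3' signal went from 4466 to 4954 and the 5' signal from 2255 to 1480.5. Z-138 (5' signal from 3137 to 2523) and Maver-1 (1033 to 898.5) also had a lower 5' signal with AFN700 while the 3' signal differed little. The 5' signal was thus the more reduced end in these 5 lines, of both classes, and the part of RNA integrity in the difference was not tested.

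HIF1A with AFN700 was 2795 for SP49, 2383 for JVM-13, 2329 for Maver-1, 2298 for JVM-2, 2296 for REC-1, 2276 for Z-138, 1967 for HBL-2 and 1769 for GRANTA-519. SP49 went from 1726 to 2795 and was the highest of the 8 AFN700 arrays, REC-1 was higher by 0.16, and the insensitive lines lay between -0.51 in JVM-13 and 0.31 in HBL-2. The response was 0.43 ± 0.19 (SE, limma adjusted p = 1) in sensitive and -0.09 ± 0.11 in insensitive lines, a difference of 0.52 ± 0.22 (adjusted p = 1). Without JVM-13 the difference was 0.43 ± 0.18. The SP49 arrays are those whose actin 3'/5' ratio went from 2.73 to 6.40, and the part of this in the HIF1A value was not tested. SP49 was higher by 0.69, and HBL-2, an insensitive line, lay between SP49 and REC-1.

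None of the other 34 members had an unadjusted p under 0.05 for this difference. The fitted difference was above 0 for 25 of the 36 members, with a median of 0.09 against -0.03 over all genes. Without REC-1 the median was 0.02 (21 above 0), without SP49 0.17 (23), without GRANTA-519 0.03 (20) and without HBL-2 0.16 (31). The split over all lines moved to 33 and 3 after centring, when all genes had a median of 0.09, and to 21 and 15 after quantile normalization.

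Single lines differed more than the classes did. GRANTA-519 had 25 of 36 members lower with AFN700 (69.4%, against 55.0% of its genes), including 7 of 9 genes of upper and 6 of 6 of lower glycolysis, with medians of -0.32 in both. Its HIF targets outside glycolysis were lower for 3 of 10, with a median of 0.22. It had 4 members at least 2-fold lower, PFKL, PFKP, ALDOC and P4HA2 (11.1%, against 6.07%), and 0 at least 2-fold higher (2.07% of genes). Quantile normalization left 25 members lower (54.7% of genes) and centring 23 (44.2%), and 6 of 6 genes of lower glycolysis were lower under both.

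JVM-13 had 5 members at least 2-fold higher, PFKL, PFKM, PFKP, ENO2 and ANKRD37 (13.9%, against 25.7% of its genes), and 4 at least 2-fold lower, PDK1, EGLN1, BNIP3L and P4HA2 (11.1%, against 7.01%). Its groups of genes had medians of opposite sign as deposited, where the median of all genes in this line was 0.27. The median was 0.40 for upper and 0.23 for lower glycolysis, the latter no higher than that of all genes. It was -0.62 for glucose entry, -0.51 for oxygen sensing and -0.86 for the other HIF targets, 8 of 10 of which were lower. The same HIF targets had been a median of 1.33 above the median of the lines under DMSO. That level and the response share 1 DMSO array, the one with the low median of 7.25. A high reading on it lowers the difference, so the 2 values are not independent. After centring, the medians of upper and lower glycolysis turned to -0.27 and -0.43 and that of the other HIF targets went to -1.53, against -0.39 over all genes. After quantile normalization they were 0.50, 0.40 and -0.72, against 0.23.

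HBL-2 had HK1 and BNIP3 at least 2-fold higher (5.6%, against 9.87% of its genes) and VEGFA lower (2.8%, against 4.46%). Z-138 had SLC2A3 and P4HA2 lower (5.6%, against 1.06%) and 0 higher (1.68%). REC-1, SP49, Maver-1 and JVM-2 had 0 of 36 members past 2-fold in either direction. The shares of their genes at least 2-fold higher were 2.54%, 2.41%, 1.37% and 0.926%, and at least 2-fold lower 1.02%, 1.32%, 1.68% and 1.07%. In Z-138 the DMSO and AFN700 intensities were 48.2 and 20.5 for SLC2A3 and 25.6 and 8.7 for P4HA2.

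**Figure D4:**
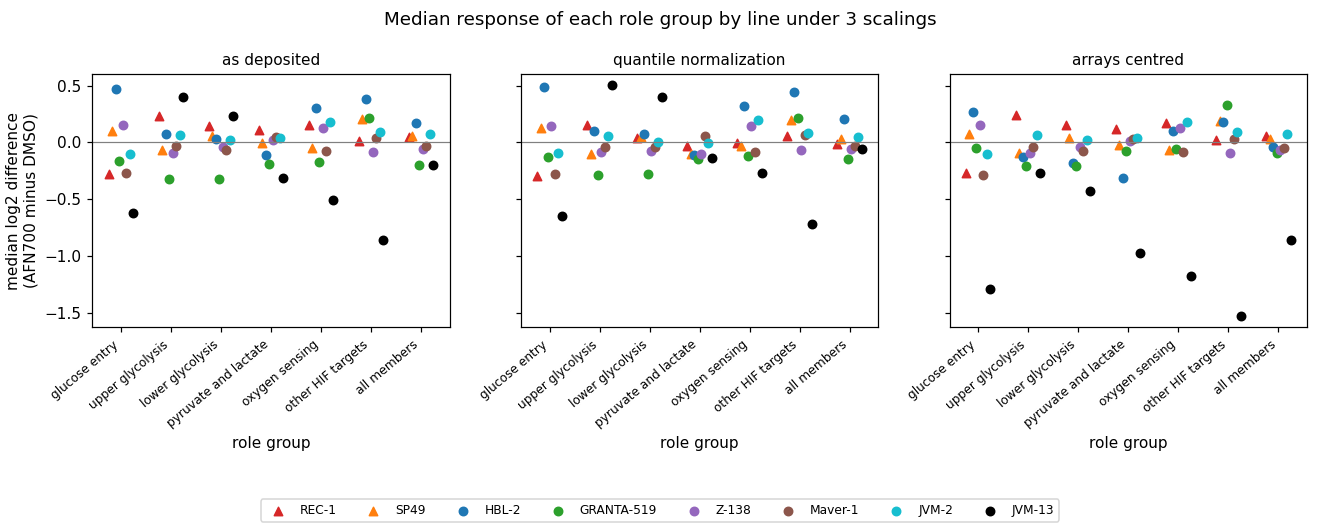
Median log2 AFN700 minus DMSO of the members of each role group (horizontal axis) in each line, as deposited, after quantile normalization and after centring each array. Triangles are sensitive and circles insensitive lines. JVM-13 is lowest for the other HIF targets under all 3 scalings (-0.86, -0.72 and -1.53), while its glycolysis medians lie above 0 as deposited and below 0 after centring.

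Leaving JVM-13 out raised the number of members at an unadjusted p under 0.05 over the remaining lines from 2 to 4, PFKFB4 and BNIP3 higher and GPI and HK2 lower, where 9.24% of all genes were higher and 5.78% lower. Leaving out HBL-2 as well gave 3 higher members (9.38% of genes) and 4 lower ones (8.18%). None of these members passed the adjusted test, as 0.0813% and 0.301% of all genes did. BNIP3 was 0.48 ± 0.19 (SE, limma adjusted p = 0.28) over the 7 lines and 0.27 ± 0.12 without HBL-2. Its second probe set shared the sign of the first in only 3 of the 8 lines.

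Other genes of the same pathways came from 3 lists, of further glycolytic enzymes, of pyruvate entry and the pentose phosphate pathway, and of further HIF regulators and targets. Of 14, 14 and 31 listed genes, 8, 13 and 23 were tested, and 0 passed the adjusted test in any of the 5 comparisons. Over 8 lines their medians were 0.04, 0.06 and 0.05, near that of all genes. Unadjusted limma p-values under 0.05 were found for 1 higher gene of the first list and 2 lower genes of the second. Of all genes tested, 6.43% were higher and 1.75% lower at that threshold.

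The higher gene was ENO3, the muscle enolase. Its DMSO and AFN700 intensities were 301 and 505 for Z-138, 247 and 360.3 for HBL-2, 208 and 221 for SP49, 141 and 200.1 for Maver-1, 84.6 and 112 for JVM-13, 79.7 and 97.1 for JVM-2, 44.9 and 118.5 for GRANTA-519 and 36.3 and 70.7 for REC-1. It was higher in 8 of 8 lines, as 1.98% of all genes were, at 0.59 ± 0.16 (SE, limma adjusted p = 0.466). The members ENO1 and ENO2 had no common sign across lines, although a second bright ENO1 probe set was lower in 7 of 8. TALDO1, the transaldolase of the pentose phosphate pathway, was lower in 8 of 8 lines, as 0.414% of all genes were. At the extremes it went from 1631 to 1616 in REC-1 and from 1842 to 1224 in GRANTA-519. Its difference was -0.28 ± 0.09 (limma adjusted p = 0.466). PGD, the third enzyme of that pathway, was lower in 5 of 8 lines at -0.40 ± 0.16 (limma adjusted p = 0.576).

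The kinase PDK4, a relative of PDK1 and PDK3, had its highest levels in the sensitive lines. It was 40.6 and 164 in REC-1 and 72.7 and 104 in SP49 under DMSO and AFN700, and at most 19.1 on the 12 arrays of the insensitive lines. The DMSO difference was 2.83 ± 0.76 (SE, limma adjusted p = 0.593) and the response in the sensitive lines 1.22 ± 0.46 (adjusted p = 1). The insensitive line Z-138 differed by 1.27 between low intensities, 2.7 and 11.2, which is more than SP49 at 0.50. Both sensitive lines lay above all insensitive lines under DMSO, as 5.68% of all genes tested did.

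The other 3 listed genes with an unadjusted p under 0.05 were RPIA, ARNT2 and INSIG2. RPIA, an isomerase of the pentose phosphate pathway, was lower with AFN700 in both sensitive lines, from 1159 to 659.8 in REC-1 and from 1062 to 882 in SP49, at -0.54 ± 0.24 (SE, limma adjusted p = 1). ARNT2, a partner protein of HIF subunits, had a DMSO difference of 2.32 ± 0.95 (limma adjusted p = 0.861), with 48.9 in SP49 and 10.8 in REC-1 but 22.2 in GRANTA-519. INSIG2, a regulator of sterol synthesis, was 249 in REC-1 and 189.9 in SP49 and 371 to 593 in the insensitive lines under DMSO, a difference of -1.18 ± 0.36 (limma adjusted p = 0.705).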

How the data were processed

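Gene expression was measured on 16 Affymetrix arrays, 1 for each of 8 cell lines under DMSO and under AFN700. The deposited values are linear intensities per probe set. The authors' tool was MAS5, as the submitters' processing notes name it; its version and settings are not given in the sources used here. The 2% trimmed mean of every array was 150.0, so the arrays had been scaled before deposit, which makes a level relative to the rest of its array. RNA was extracted with RNeasy Plus and amplified with NuGEN Ovation, per the labels' protocols. The precision is limited by the number of arrays.

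From the deposited intensities log2(intensity + 3.3) was computed here, 3.3 being the 25th percentile of all values. Of 54675 probe sets, 42898 had a gene in the platform annotation, 1801 had several and 41091 were used for 19775 genes, with symbols updated through Entrez identifiers to the GRCh38.p14 RefSeq table. The probe set of highest mean signal stood for a gene. Genes above the 60th percentile of the array on at least 2 arrays were tested with limma 3.58.1 in R 4.3.3 (lmFit, and eBayes with a trend), with the line as a block for AFN700 against DMSO, which pairs the arrays of 1 line by the labels. P-values were adjusted by Benjamini-Hochberg over 12305 genes. The script was tested on simulated data.

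Members in role order are all accounted for. Values on every array are given for members at an unadjusted p under 0.05 in any of 5 comparisons, for members with 1 sign in all 8 lines, and for the 3 members of largest mean signal in each role; the rest are given by ranges. Members, gene lists and tests were chosen with earlier results of these data known. Of the other pathway genes, the 7 with an unadjusted p under 0.05 in any comparison are named, chosen after their values were seen.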

Additional observations from a re-analysis of the deposited data

Results flagged for a closer look

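Over the 6 insensitive lines, 72 sets of values (the DMSO level and the AFN700 response of 36 members) were searched for a line far from the others by Dixon's ratio. In 6 of them 1 line stood apart, where chance alone flags about 1 in 20, or 3.6. Of the 6, 4 were responses of JVM-13. SLC2A1 was -0.83 (log2) in JVM-13, where the other insensitive lines lay between -0.14 and 0.24. PFKM was 1.81, with the others between -0.40 and 0.05. EGLN1 was -1.14, with the others between -0.01 and 0.37, and BNIP3L was -1.53, with the others between -0.07 and 0.27. The DMSO array of JVM-13 is the one with the low median of 7.25, and its part in these values was not tested.

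The other 2 were of BNIP3 in HBL-2. Its DMSO level was 2.29 on the log2 scale, against 8.70 to 10.76 in the other insensitive lines, and its response was 1.79, against -0.32 to 0.46. Both intensities, 1.6 and 13.7, were low.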

How the results depend on the processing

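No member passed the adjusted test in the 4 AFN700 comparisons under any alternative run, and none in the DMSO comparison in any run with both sensitive lines. Without SP49, REC-1 stood alone in its group, and the DDIT4 difference there was -4.64. The member median in the sensitive lines, 0.086, became -0.014 after quantile normalization, 0.080 after centring, 0.025 with the probe set of largest variance and without x_at probe sets, 0.032 with the mean of all probe sets, and 0.045 to 0.086 with a line left out. HK2 in the insensitive lines turned to 0.12 with the probe set of largest variance (limma adjusted p = 0.933). Counts of members past 2-fold in 1 line moved as follows. Higher members became 1 in REC-1, SP49, Z-138 and JVM-2 with a pseudocount of 1, 1 in HBL-2 with a pseudocount of 16 or centring, 1 in GRANTA-519 with centring and 2 in JVM-13 with centring. Lower members became 0 in Z-138 with a pseudocount of 16, and in JVM-13 2 after quantile normalization and 17 after centring. Centring moves every response of a line by the gap between the medians of its 2 arrays, which in JVM-13 were 7.25 under DMSO and 7.91 with AFN700. There it took the median response of all genes from 0.27 to -0.39. The cause of the other moves was not tested. Without the replicate block, which pairs the 2 arrays of a line, the member median over 8 lines was -0.02 and 0 members passed, while 57 genes in place of 1006 had an unadjusted p under 0.05. All 20 alternatives kept the sign of PFKFB4 (0.39 to 0.62) and of HK2 (-0.36 to -0.01) over 8 lines. Without JVM-13, 10 genes passed the adjusted test over the remaining lines, and without JVM-13 and HBL-2, 37 did. With 2 sensitive lines, differences smaller than the spread between lines could not be detected.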

Other observations

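Across lines, the DMSO levels of the lower glycolysis genes had a median Pearson correlation of 0.63 over 15 pairs of genes and 8 lines, and of 0.69 without JVM-13. For the pyruvate and lactate genes the medians were 0.59 over 6 pairs and 0.30 without JVM-13, and for the HIF targets outside glycolysis 0.09 over 45 pairs and 0.12 without JVM-13. For the AFN700 responses the median was 0.48 for lower glycolysis (0.49 without JVM-13) and 0.195 for the HIF targets outside glycolysis (-0.004 without JVM-13). These are descriptions over the same arrays, without a test of any difference between roles.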
